A study of Rattus norvegicus with 35 samples.

Results

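The 24 rat mammary tumours of this series were ordered by their signals of 3 matrix metalloproteinases, Mmp3, Mmp7 and Mmp13, and the 8 tumours with the highest mean were compared with the 8 with the lowest across all other genes. The members are therefore 16 of 24 tumours, and of 35 arrays in all, since 11 normal glands were also measured. All tumours were induced with the carcinogen N-methyl-N-nitrosourea (NMU), which alkylates DNA and gives rats hormone-dependent mammary carcinomas, and the labels call them frozen. One normal gland is titled Young; the labels give no other age, and no strain, sex, dose of the carcinogen, time or treatment after induction. The 2 groups of 8 are not groups of the study: they were formed from measured values, and the labels do not separate these tumours. Each sample is total RNA of whole tissue on one RAE230A array, where the brightness of the short oligonucleotides that target a transcript (a probe set) is summarised as a signal. In such samples fewer cells of a type and less RNA per cell cannot be told apart.

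Matrix metalloproteinases are zinc-dependent enzymes that are secreted as inactive proforms and cut the proteins of the extracellular matrix once the propeptide is removed. Mmp3 (stromelysin) cuts proteoglycans, laminin and fibronectin and activates other proforms. Mmp13 is an interstitial collagenase, and Mmp7 (matrilysin) is a small member made mostly by epithelial cells that also releases proteins from the cell surface. In the mammary gland these enzymes take part in ductal branching and in the breakdown of the gland after lactation, and tissue inhibitors of metalloproteinases (Timp genes) hold them in check.

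The 3 genes lie in one cluster of metalloproteinase genes, and their promoters are shown with the letters of sites that they share. Whether such sites bear on the levels of these genes was not tested. The sequences are from RefSeq (assembly GRCr8) and cover the 250 bases before each start on the plus strand, with the site of the AP-1 factors (TGAGTCA or its reverse complement TGACTCA) in capitals. The windows are chr8:12925031-12925280 for Mmp3, chr8:13132793-13133042 for Mmp7 and chr8:12782579-12782828 for Mmp13, where the site begins 71, 80 and 66 bases before the start.
Mmp3: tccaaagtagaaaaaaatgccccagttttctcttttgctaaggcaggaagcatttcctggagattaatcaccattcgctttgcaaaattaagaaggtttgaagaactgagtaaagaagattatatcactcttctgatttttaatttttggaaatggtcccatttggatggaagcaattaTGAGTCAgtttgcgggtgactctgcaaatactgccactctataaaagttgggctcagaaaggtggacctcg
Mmp7: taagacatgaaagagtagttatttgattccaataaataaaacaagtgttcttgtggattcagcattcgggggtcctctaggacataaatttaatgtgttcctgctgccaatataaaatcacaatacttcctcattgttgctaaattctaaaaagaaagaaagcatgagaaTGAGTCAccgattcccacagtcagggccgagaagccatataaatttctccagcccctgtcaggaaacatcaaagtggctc
Mmp13: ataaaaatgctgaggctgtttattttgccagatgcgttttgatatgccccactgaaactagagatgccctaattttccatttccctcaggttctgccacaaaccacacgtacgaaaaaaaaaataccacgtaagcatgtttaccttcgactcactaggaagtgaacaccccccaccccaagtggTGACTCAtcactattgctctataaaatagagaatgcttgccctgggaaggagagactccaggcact
The neighbours Mmp10 and Mmp12 hold the same letters, shown here with 14 bases on each side at chr8:12974632-12974666 and chr8:12866551-12866585.
Mmp10: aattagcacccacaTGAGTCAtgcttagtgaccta
Mmp12: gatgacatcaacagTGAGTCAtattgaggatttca
Searched on both strands, the AP-1 letters occur in 4.05% of 33469 promoter windows of this length. All 3 windows also hold AGGAAG, the core of a PEA3 site for Ets factors, which 29.5% of windows hold. The letters AACCACA, a Runx site, occur in that of Mmp13 only among the 3 and in 4.59% of all windows. A match is a description of letters and no measure of binding.

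The score that ordered the tumours was the mean over the 3 genes of log2 signal, with values under a signal of 41.6 set to that floor. It was 10.40 ± 0.36 (SD, n = 8) in the high tumours (X11, X29.2, X25L, X21, X32, X18, X29.1 and X15) and 8.27 ± 0.55 (SD, n = 8) in the low tumours (X8, X13, X2, X20, X27, X10, X26 and X14). In the 11 normal glands it was 5.67 to 6.43. The upper edge of the groups fell between X15 at 9.87 and X6 at 9.51. The lower edge fell between X9 at 8.95 and X8 at 8.93, so the low group ends where no gap separates it from the middle.

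Mmp3 was the brightest of the 3 in signal. Its signals in the high tumours were 2106 to 5480 with a median of 4674, those in the 8 middle tumours 1337 to 3109 (median 2004) and those in the low tumours 614 to 1665 (median 1120). The high and low tumours did not overlap, which the choice of groups favours, and every one of them lay above the highest normal gland at 373. X29.2, X29.1, X32, X11 and X21 formed the upper end at signals of 4638 or more, and X26 was the lowest tumour.

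Mmp7 had signals of 244 to 882 (median 590) in the high tumours, 2.37 to 559 (median 225) in the middle tumours and 38.7 to 355 (median 93.4) in the low tumours. High and low tumours overlapped for this gene: X13, in the low group, had 355, while X21, X29.1 and X32 of the high group had 248, 244 and 315. All 11 normal glands were under the floor. X22L, a middle tumour, was also under the floor for Mmp7, with 2741 for Mmp3 and 1242 for Mmp13.

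Mmp13 had signals of 482 to 2551 (median 1402) in the high tumours, 137 to 1242 (median 386) in the middle tumours and 122 to 447 (median 254) in the low tumours. The lowest high tumour was X15 at 482 and the highest low tumour X20 at 447. Of the normal glands, 9 were under the floor and the highest had 58.7.

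**Figure D1:**
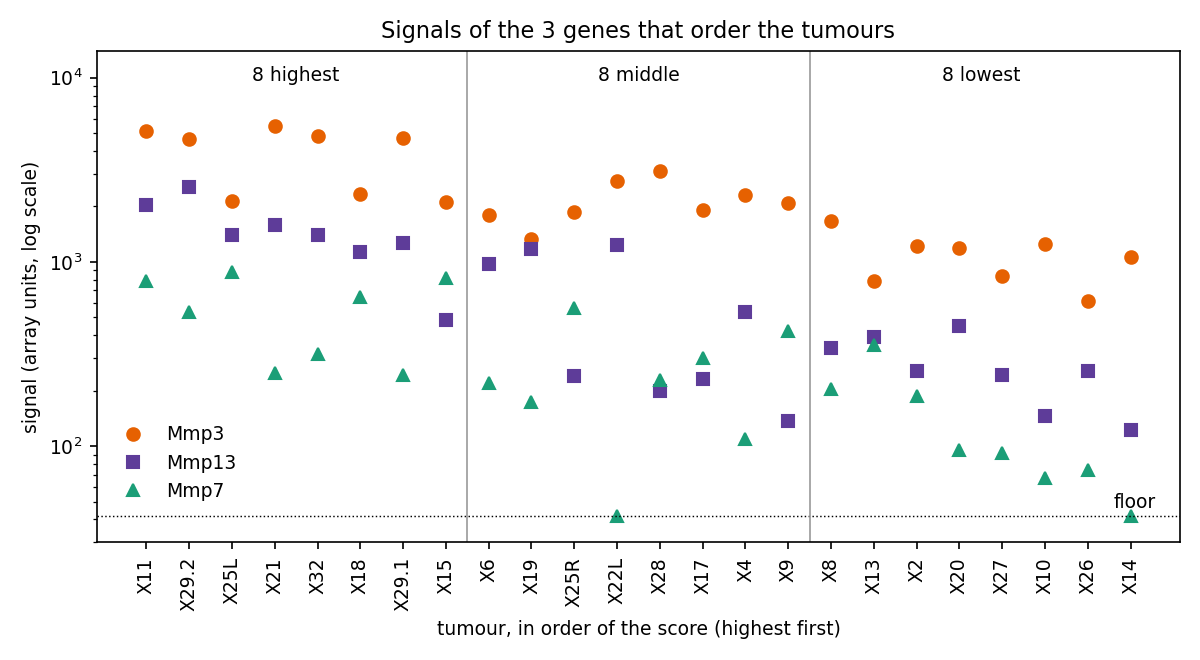
Signals of Mmp3 (circles), Mmp13 (squares) and Mmp7 (triangles) in array units on a log axis, one column per tumour in order of the score, with values under the floor (dotted line) drawn at the floor. Mmp3 separates the 8 highest (2106 to 5480) from the 8 lowest tumours (614 to 1665), whereas Mmp7 overlaps between them and is at the floor in X22L.

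On the log2 scale the high group exceeded the low group by 1.82 for Mmp3, 2.15 for Mmp7 and 2.42 for Mmp13, folds of 3.53, 4.43 and 5.34 that the rule itself produced. The 3 genes followed each other in part. Over the 24 tumours the correlation was 0.66 between Mmp3 and Mmp13, 0.46 between Mmp3 and Mmp7 and 0.39 between Mmp7 and Mmp13 (Pearson), and without X22L these were 0.66, 0.55 and 0.52. They are descriptions over arrays that share platform and scaling.

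Across the other genes, none passed the test between high and low tumours. With limma and Benjamini-Hochberg adjustment, 0 of 10408 genes (0%) and 0 of 15863 probe sets (0%) were called at an adjusted p under 0.05. The smallest adjusted p was 0.260 over genes and 0.330 over probe sets. At an unadjusted p under 0.05 there were 849 genes (8.16%), 523 with a positive (5.02%) and 326 with a negative difference (3.13%), and 1329 probe sets (8.38%). The balance of signs depended on scaling: 377 were positive and 406 negative after quantile normalization, and 440 and 388 after median scaling. The median standard error (SE) of a gene's log2 difference was 0.14. The median difference over all genes was 0.00. Genes with a difference of at least 2-fold in group means numbered 13 higher (0.125%) and 5 lower (0.048%) in the high tumours. In 7 genes (0.0673%) every high tumour lay above every low tumour, and in 1 gene (0.00961%) every one lay below.

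The genes with the smallest p in each direction are described next, though none passed. On the higher side they were Kat7, Stard3nl, Yipf1, Pmepa1, Plbd1, Arl6ip5, Glrx, Rpsa, Ormdl2 and Vapa. Kat7, a histone acetyltransferase, had signals of 392 to 459 (median 418) in the high tumours, 338 to 429 (median 363) in the middle and 301 to 364 (median 348) in the low tumours. High and low tumours did not overlap, with a log2 difference of 0.31 (SE 0.07, limma adjusted p = 0.260). Stard3nl, a membrane protein of late endosomes that binds the endoplasmic reticulum, had signals of 260 to 336 (median 294) in the high and 183 to 244 (median 212) in the low tumours. These groups did not overlap either, with a difference of 0.45 (SE 0.10). Yipf1, a Golgi membrane protein, had 450 to 678 (median 537) and 247 to 491 (median 397), which overlap, and a difference of 0.55 (SE 0.12).

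Pmepa1, a membrane protein that dampens TGF-beta signalling and is itself a target of that pathway, had signals of 2323 to 3454 (median 2900) in the high and 1477 to 3222 (median 1756) in the low tumours. X14 was the one low tumour inside the high range, at 3222, and the log2 difference was 0.62 (SE 0.14). Without X14 Pmepa1 was the only gene called, at 0.74 (SE 0.12, limma adjusted p = 0.0188). Plbd1, a phospholipase-like protein of lysosomes, had 286 to 999 (median 393) and 88.2 to 345 (median 208), with a difference of 1.13 (SE 0.26). Glrx, a glutaredoxin that reduces protein-glutathione bonds, had 228 to 746 (median 499) and 193 to 346 (median 243), with a difference of 0.87 (SE 0.21). Its other probe set gave 1.06 (SE 0.22).

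Arl6ip5, a membrane protein that binds glutamate transporters, differed by 0.58 (SE 0.14), and its other probe set by 0.50 (SE 0.14). Rpsa, a ribosomal protein and laminin receptor, had 4979 to 6132 in the high and 3635 to 4932 in the low tumours, without overlap, at a difference of 0.25 (SE 0.06). Its other probe sets gave 0.09 (SE 0.08) and 0.11 (SE 0.08), so the probe sets of Rpsa disagree on the size. Ormdl2, a regulator of sphingolipid synthesis, differed by 0.37 (SE 0.09), and Vapa, a tether of the endoplasmic reticulum to other membranes, by 0.35 (SE 0.09).

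On the lower side, Prss3b, a trypsin gene, had 32.7 to 93.3 (median 60.0) in the high and 79.6 to 118 (median 91.8) in the low tumours, with a log2 difference of -0.61 (SE 0.14, limma adjusted p = 0.260). Obp1f, an odorant-binding protein, had 62.1 to 106 and 89.6 to 127, with a difference of -0.47 (SE 0.11). Adam23, a member of the ADAM family of membrane proteins, had 77.8 to 115 and 107 to 159, with a difference of -0.48 (SE 0.11), but its other probe set gave 0.00 (SE 0.28). Hal, the histidine ammonia-lyase of liver and skin, had 26.7 to 58.4 and 56.1 to 77.8, close to the floor of 41.6, with a difference of -0.48 (SE 0.11). Gamt, an enzyme of creatine synthesis, differed by -0.28 (SE 0.07) and Mbl2, a mannose-binding lectin made by liver, by -0.42 (SE 0.11), with the other probe set of Mbl2 at -0.09 (SE 0.18). Spata19 (-0.42), Camta2 (-0.43), Vcsa2 (-0.38) and Mast2 (-0.37) completed the 10, and the other probe set of Mast2 gave 0.11. The middle tumours had a mean between those of the other groups in 20 of these 20 genes. The 20 were picked on the same arrays for their difference between high and low, which favours a middle mean in between. The share over all genes was not counted, so no gradient is read from it. Of the 20, 17 have a promoter in RefSeq, and 2 of these hold the AP-1 letters.

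**Figure D2:**
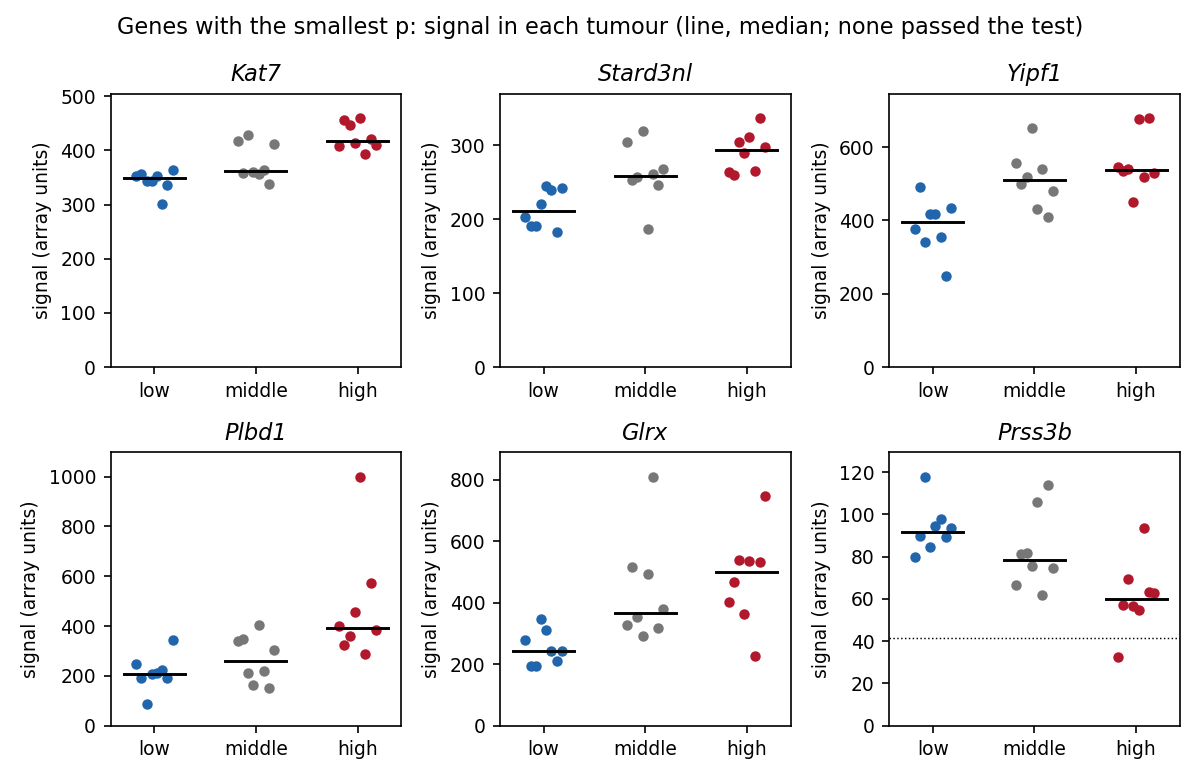
Signal in array units of 6 genes among those with the smallest p, in the 8 low, 8 middle and 8 high tumours (points) with the median of each group as a line and, for Prss3b, the floor as a dotted line. High and low tumours do not overlap for Kat7 and Stard3nl, overlap for the other 4, and no gene passed the test (smallest adjusted p 0.260).

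Ranked by likeness to the score over the 24 tumours, as a description, Kat7 stood first (Spearman rho 0.78), followed by Rpsa (0.77), Gclm (0.75), Yipf1 (0.74), Arl6ip5 (0.74), Stard3nl (0.71), Vapa (0.70), Dcaf7 (0.69), Ccndbp1 (0.68) and Tmem123 (0.68). Gclm, the modifier subunit of the enzyme that limits glutathione synthesis, had signals of 87 to 106 in the high and 54 to 92 in the low tumours. At the other end were Prss3b (-0.72), Obp1f (-0.72), Vch (-0.69), Atp2b4, a calcium pump (-0.68), and Adam23 (-0.68). Of these 15 genes, 9 are also among the 20 by p, which rest on the same values.

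The enzymes nearest in function to the 3 genes had no call. Mmp12 (macrophage elastase) had signals of 160 to 802 (median 321) in the high and 228 to 370 (median 283) in the low tumours, a log2 difference of 0.11 (95% interval -0.59 to 0.81). Mmp10, the gene closest in kind to Mmp3, was listed at 1 in all 16 high and low tumours, and Mmp9 (gelatinase B) was under the floor in all 16. Mmp14, a membrane-bound activator of proforms, had 1444 to 2948 and 636 to 4251, which overlap widely, with a difference of 0.37 (-0.34 to 1.07). For Mmp2 (gelatinase A) the difference was 0.09 (-1.19 to 1.37) and for Mmp11 0.42 (-0.35 to 1.20). Of the 26 measured matrix proteases outside the rule, 0 passed and 3 had an unadjusted p under 0.05, beside 8.16% of all genes. These were Adam10 (0.60, 84 to 222 in the low and 148 to 248 in the high tumours) and Adam17 (0.37), both sheddases of the cell surface, and Ctsc, a lysosomal protease (0.44). The list had a median difference of 0.10, beside 0.00 for all genes.

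The inhibitors had wide intervals. Timp3, the inhibitor bound to the matrix, had signals of 401 to 2240 (median 1326) in the high and 176 to 1909 (median 756) in the low tumours, with a difference of 0.96 (95% interval 0.06 to 1.87, limma adjusted p = 0.610). The ranges overlap over most of their length. Timp1 differed by 0.27 (-0.61 to 1.15) and Timp2 by 0.37 (-0.57 to 1.31). Reck, a membrane inhibitor of metalloproteinases, had 213 to 967 (median 590) and 221 to 605 (median 350), with a difference of 0.59 (0.04 to 1.15). The urokinase activator Plau (0.02), its receptor Plaur (-0.21) and the inhibitor Serpine2 (0.43) had intervals that include 0. Of the 22 measured inhibitors and plasminogen activation genes, 0 passed, 4 had an unadjusted p under 0.05, beside 8.16% of all genes, and the median was 0.19.

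Genes of the factor families whose site letters were searched above (AP-1, Ets and Runx) were also without a call. So were cytokines known to change metalloproteinase transcription in culture. These are RNA signals, and binding of the factors to the sites was not measured. Jun had signals of 397 to 735 (median 556) in the high and 302 to 597 (median 510) in the low tumours, a difference of 0.24 (95% interval -0.11 to 0.58). Fos differed by -0.07 (-0.73 to 0.59), Fosl1 by -0.12, Junb by 0.11, Ets1 by 0.00, Ets2 by 0.03 and Runx1 by 0.41 (-0.33 to 1.14). Il1a (-0.15), Il1b (0.01), Tnf (-0.05) and Tgfb1 (0.27) had intervals that include 0, and so had Axin2 (-0.05), a target of beta-catenin, and Ctnnb1, beta-catenin itself (-0.10). Of 26 measured AP-1, Ets and immediate early factors 0 passed. At an unadjusted p under 0.05 there were 3, again beside 8.16% of all genes. Of these, 2 were positive, Cebpb (0.27) and Dusp6 (0.35), and Nr4a1 was negative. Dusp6, a phosphatase that ERK signalling induces, had 2008 to 4020 in the low and 2337 to 3747 in the high tumours.

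Genes that mark the tumours of this series, the epithelium and the hormone response were also without a call. Msln (mesothelin) had 580 to 1112 in the high and 119 to 1010 in the low tumours, a difference of 0.88 (95% interval -0.17 to 1.92). Spp1 (osteopontin, 0.63), Penk (0.55) and Cd44 (0.52), a hyaluronan receptor, had intervals that include 0. Esr1, the oestrogen receptor, had 59.4 to 128 and 25 to 101, a difference of 0.55 (0.07 to 1.04, limma adjusted p = 0.578), and Pgr, the progesterone receptor, 0.56 (-0.12 to 1.23). Krt8, a luminal keratin, differed by -0.49 (-1.54 to 0.56), Krt5, a basal keratin, by 0.05 (-0.86 to 0.97) and Mki67, a proliferation marker, by -0.33 (-0.91 to 0.25). Of the genes in this paragraph given with an interval, Csn2 (beta-casein) had the widest, at a difference of -1.53 (-3.24 to 0.17). Its signals were 18.3 to 54.5 in the high and 30.3 to 1907 in the low tumours, but with medians of 38.3 and 44.5. In each group 4 of 8 were under the floor.

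**Figure D3:**
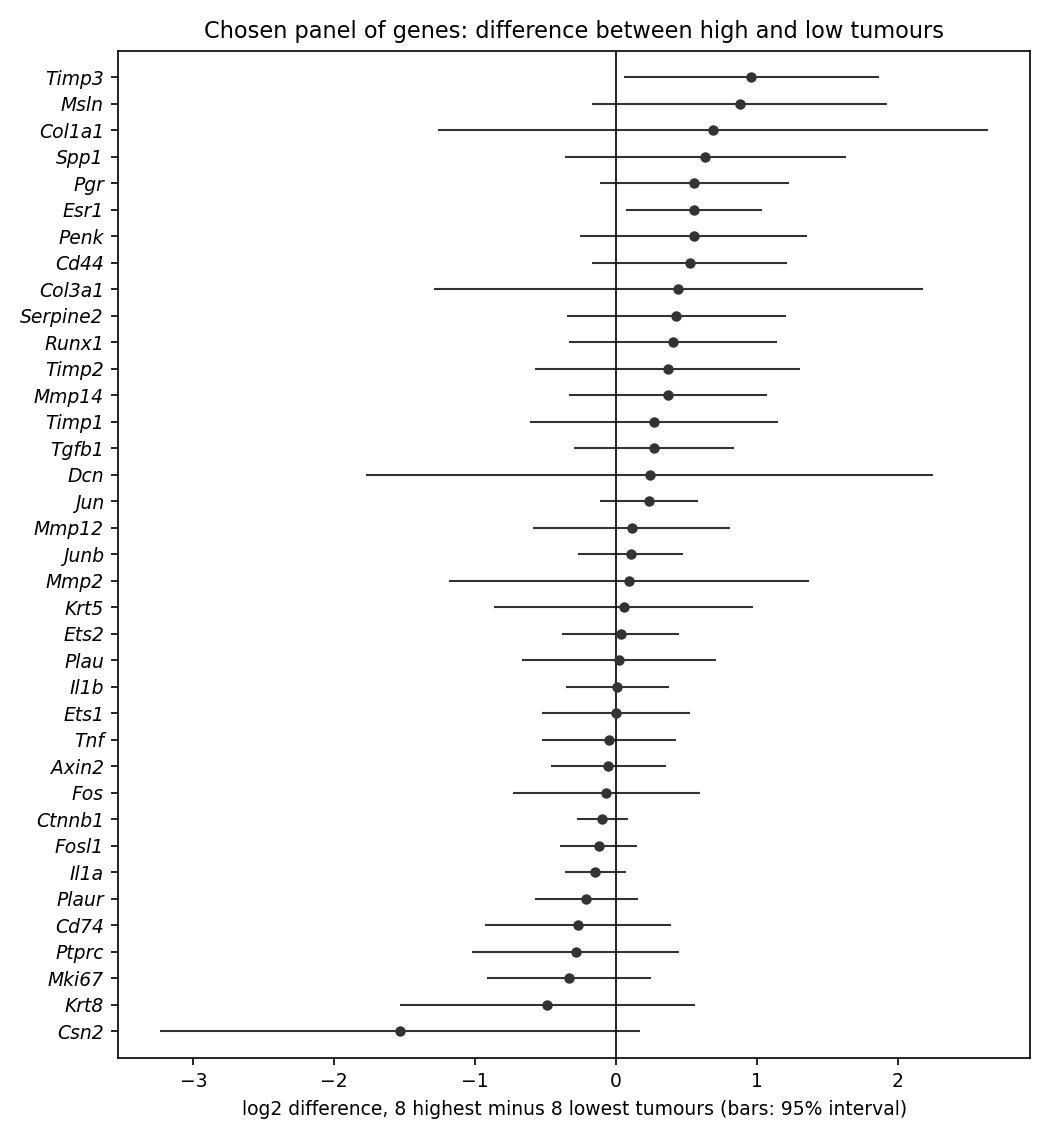
Log2 difference, 8 highest minus 8 lowest tumours, of the chosen panel of genes outside the rule (points), with 95% intervals from limma as bars and a line at 0. The intervals of Timp3 (0.06 to 1.87) and Esr1 (0.07 to 1.04) lie above 0 before adjustment, and none of the genes passed after it.

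With 0 of all genes called, the 35 gene lists, of whose 904 symbols 737 were measured, are described by their medians. The list of genes known to be high in tumours of this series, chosen on these samples, had the highest median at 0.46 over 8 genes, and mast cells and granulocytes the lowest at -0.21 over 16. Cell cycle genes had a median of -0.15 with 5 of 28 positive, T and NK cells -0.12 with 5 of 22, and ribosomal proteins 0.06 with 20 of 23 positive, of which 5 had an unadjusted p under 0.05. Over all genes 5321 of 10408 differences were positive, and 5.02% were positive with an unadjusted p under 0.05. Fibroblast and fibrillar matrix genes had a median of 0.17 with a median SE of 0.67, the widest of these lists. Col1a1, for example, ran from 236 to 4569 in the high and from 69.2 to 8788 in the low tumours, a difference of 0.69 (95% interval -1.26 to 2.64). The glutathione list had 4 of 28 genes at an unadjusted p under 0.05, all positive: Gclm (0.37), Prdx6 (0.41), Gpx4 (0.34) and Mgst1 (0.78). Over all genes 5.02% had such a p with a positive difference. In the other direction, the nerve and Schwann cell list had 4 of 15 genes at such a p, all negative (Prx, Ncam1, Gfap and Nefl). Its median was -0.10 with 4 of 15 positive, of which Cnp was highest at 0.56. Its summed signals overlapped and had the higher median in the high tumours. They were 2576 to 4560 (median 3884) in the high and 2352 to 4693 (median 3250) in the low tumours. The endothelium list had a median of 0.04 with 13 of 22 positive. It summed to 3648 to 7573 (median 4394) in the high and 3323 to 6572 (median 4060) in the low tumours. Negative at an unadjusted p under 0.05 were 2 of these 22 genes (Sox17 and Egfl7). Over all genes 3.13% had such a p with a negative difference.

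**Figure D4:**
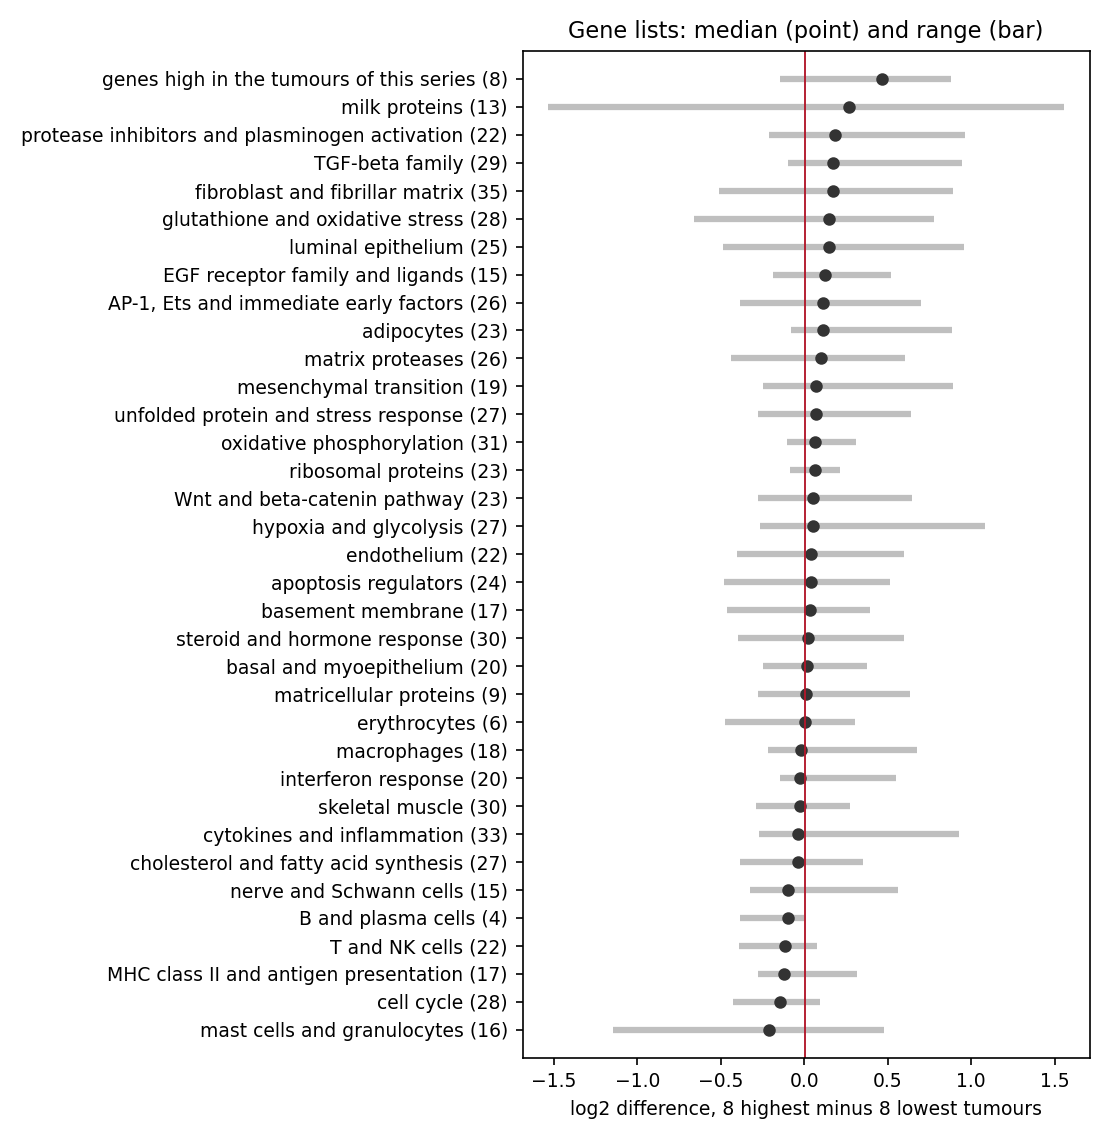
Median (point) and range (bar) of the log2 difference, 8 highest minus 8 lowest tumours, for each gene list with the number of measured genes in brackets, and the median over all genes as a vertical line. Medians run from -0.21 for mast cells and granulocytes to 0.46 for genes high in these tumours, and the ranges cross 0 in every list other than B and plasma cells.

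The summed marker signals of other cell types overlapped between the groups. Luminal epithelium, 25 markers, summed to 24736 to 44394 in the high and 24042 to 34901 in the low tumours. Fibroblast and fibrillar matrix, 35 markers, summed to 9050 to 53631 and 4618 to 92390. Macrophage markers, 18 in number, summed to 13859 to 25494 and 11842 to 19126, and T and NK markers, 22 in number, to 2196 to 4506 and 2802 to 4450. Adipocyte markers, 23 in number, summed to 2300 to 10749 and 2341 to 3908, under the 26456 to 74984 of normal glands, and Lep was at the floor in every tumour. The epithelial marker Epcam was high in all 16, at 2055 to 3891 in the high and 1659 to 3436 in the low tumours. Other luminal markers were dim in some tumours: Kit was under the floor in 2 low tumours. X22L stood apart in the middle group, with Epcam at 98, Krt18 at 22 and a luminal marker mean of 6.40 on the log2 scale against 8.91 to 9.78 in the other 23 tumours. The 90th percentile of signal was 609 ± 43.5 in the high and 574 ± 31.0 in the low arrays (SD, n = 8, two-sided exact permutation p = 0.0897), and the Gapdh 3' to 5' ratio had a high minus low difference of -0.07 (exact permutation p = 0.131). None of 5 such array measures passed (adjusted p of at least 0.276).

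Beyond Plbd1, given above, the genes that differed by at least 2-fold in group means had SEs of 0.42 or more. The difference farthest from 0 was that of LOC102552398, with 17.9 to 275 (median 45.7) in the high and 33.1 to 1231 (median 205) in the low tumours, at -1.85 (SE 0.62) with 2 high and 1 low tumour under the floor. Enpp3, an ectonucleotidase, had 963 to 2234 (median 1203) in the high and 30.9 to 1876 (median 484) in the low tumours, a log2 difference of 1.57 (SE 0.63). Lbp, the lipopolysaccharide-binding protein, had 497 to 4700 (median 3061) and 98.9 to 3918 (median 1075), a difference of 1.56 (SE 0.77). Cfi, complement factor I, had 326 to 1286 and 113 to 765, a difference of 1.37 (SE 0.54). Gabrp, a GABA receptor subunit of epithelia, differed by 1.31 (SE 0.45), and Bhlhe41, a clock repressor, by 1.12 (SE 0.42). Tpsab1, the mast cell tryptase, had 11 to 441 (median 26) and 19 to 987 (median 172), and was one of 5 genes lower by at least 2-fold. Since 6 of 8 high and 2 of 8 low tumours were under the floor for Tpsab1, its difference of -1.14 (SE 0.62) is set in part by the floor. In all of these named examples, chosen after their values were seen, the high and low ranges overlap.

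The number of calls depended on which of the 3 genes formed the score. With Mmp7 and Mmp13 alone (Mmp3 left out), 44 genes were higher and 12 lower in the high group (0.538% of genes), and with Mmp3 and Mmp7 alone (Mmp13 left out) 9 were higher and 0 lower (0.0865%). With Mmp3 and Mmp13 alone 0 genes passed, and so did 0 when the score of all 3 was fitted as a slope over the 24 tumours. Leaving out Mmp3 or Mmp13 moves X22L into the low group, as it does X28 without Mmp3 and X19 without Mmp13. Leaving out Mmp7 moves X22L into the high group. Without X22L the counts were 18 higher and 5 lower with Mmp3 left out, and 3 higher and 1 lower with Mmp13 left out. Cp (ceruloplasmin, a copper-binding oxidase of plasma) had the smallest p with Mmp3 left out, at 1.69 (SE 0.27, limma adjusted p = 0.0147), against 1.08 in the comparison by all 3 genes.

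Prompted by these counts, and so chosen after the result above was seen, each of the 3 genes was then fitted alone as a slope over the 24 tumours. Slopes on Mmp3 and on Mmp13 gave 0 genes each, with 632 (6.07%) and 439 (4.22%) at an unadjusted p under 0.05. The slope on Mmp7 gave 331 of 10408 (3.18%), 269 rising (2.58%) and 62 falling (0.596%) with it. It is one of several scores tried on the same arrays and has no independent check here. Single tumours moved the count: it was 120 without X25R, 157 without X27, 167 without X29.2 and 773 without X18. Without X22L, in which Mmp7 and the luminal markers are both low, 197 were called (1.89%), of which 148 rose (1.42%) and 49 fell (0.471%), and 124 genes were called in both fits. After quantile normalization 88 rose and 43 fell, so the share of calls that rose went from 81.3% to 67.2%. With the luminal marker mean as a covariate 0 genes passed (smallest adjusted p 0.0708, with 2081 genes at an unadjusted p under 0.05). The correlation of Mmp7 with that mean was 0.49 over 24 tumours and 0.37 without X22L. With all 3 genes in one fit, 292 genes rose and 51 fell with Mmp7 (2 and 1 without X22L), and the difference between the slopes on Mmp7 and on Mmp3 passed for 0 genes. For Mmp7 against Mmp13 it passed for 11 genes, and for 2 without X22L. That genes follow Mmp7 and not Mmp3 is therefore not shown.

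**Figure D5:**
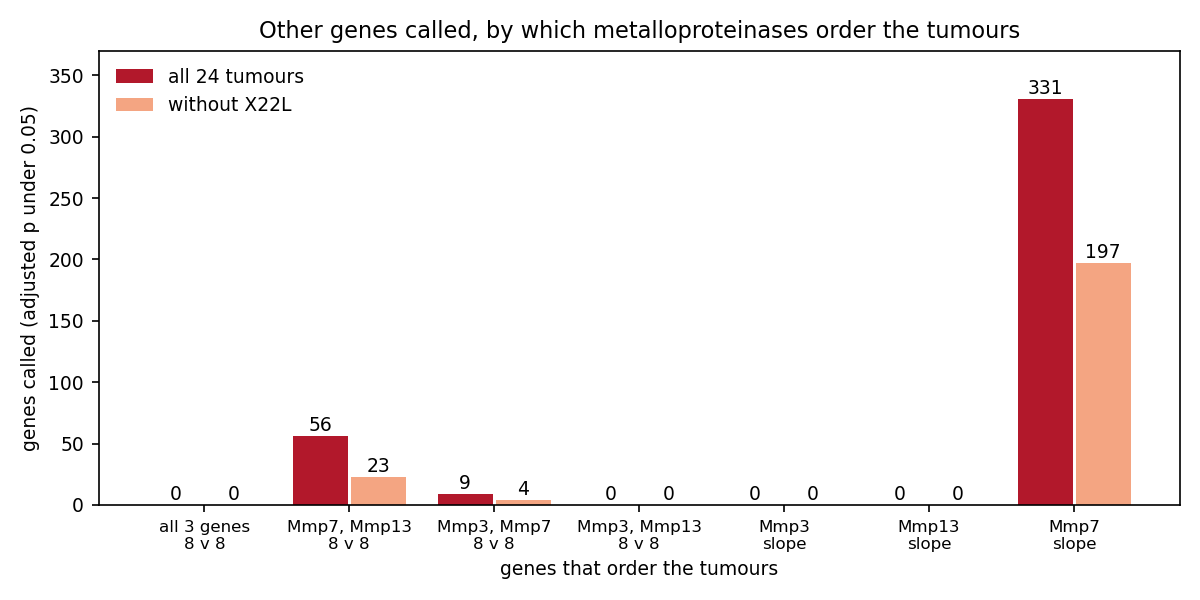
Number of genes called by limma (adjusted p under 0.05) when tumours are ordered by all 3 genes, by each pair (8 against 8) or by one gene as a slope, with all 24 tumours (dark bars) and without X22L (light bars). For each pair, dropping X22L takes it out of the low or high group, so the light bars there are not 8 against 8. The score of all 3 genes gives 0 calls, and the slope on Mmp7, chosen after that result was seen, gives 331 and, without X22L, 197.

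Slopes on Mmp7 are given as log2 change per 2.15 log2 units of Mmp7, the distance between the high and low groups. The first 3 are the rising genes with the smallest p among those called both with and without X22L. Their call without X22L was therefore part of the choice. Myc and Ctsc follow, chosen by name after their values were seen. Eif4e3, a relative of the cap-binding translation factor, had signals of 40.5 to 102 over the 24 tumours and rose by 0.48 (SE 0.07, limma adjusted p = 0.00815). Without X22L, its lowest tumour, the value was 0.45 (SE 0.08, limma adjusted p = 0.0257). Mgst1, a microsomal glutathione transferase, had 401 to 1721 and rose by 0.83 (SE 0.14), and by 0.86 (SE 0.15) without X22L. Sectm1b rose by 1.56 (SE 0.26) and by 1.39 (SE 0.27) without X22L, from signals of 71.4 to 2011. Myc, the growth transcription factor, rose by 0.66 (SE 0.15) and by 0.73 (SE 0.16). Its signals were 250 to 1158, with X22L at 394 inside that range. Ctsc (443 to 1359) rose by 0.52 (SE 0.11) and by 0.60 (SE 0.11).

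Other calls on that slope were lost without X22L, 207 of the 331 in all, of which 16 had a slope smaller by over 1.5 times. Muc1, a luminal mucin, had 36.3 in X22L, its lowest tumour, and rose by 0.76 (SE 0.18), while without X22L the value was 0.51 (SE 0.15, limma adjusted p = 0.0575). Cebpd (0.92 with and 0.72 without X22L), Tcf7l2 (0.66 and 0.51), Ptges (0.80 and 0.60) and Tgfb3 (0.89 and 0.69) also lost their call, and X22L was the lowest tumour for each. Kit (1.14 and 1.04) and Canx (0.21 and 0.22) lost theirs with slopes of nearly the same size. Of the falling genes Hsd3b1, a steroid dehydrogenase, had 133 to 283 and fell by 0.42 (SE 0.09), and Cdh3 (P-cadherin, a basal adhesion protein) had 259 to 475 and fell by 0.29 (SE 0.08). Without X22L these values were -0.41 (SE 0.10) and -0.35 (SE 0.08), and both were called, which for Hsd3b1 was part of its choice. With the luminal marker mean as a covariate, all 331 slopes kept their sign and none passed; 68 were smaller by over 1.5 times, and the median slope was 85.1% of its size without it. Those of Muc1 (0.42), Inhbb (0.78 against 1.35) and Cd14 (0.59 against 1.08) were among the smaller, and those of Myc (0.74) and Cdh3 (-0.35) were not. These genes were chosen for their calls in the fit without the covariate. Muc1 is also a member of the luminal list, so its own values enter the covariate and favour a smaller slope.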

How the data were processed

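The deposited table holds one intensity per probe set and array on a linear scale, for 15923 probe sets and 35 arrays (11 normal glands, 24 tumours), grouped by the labels. The software, background correction and scaling behind these intensities were not given in the sources used here, and the lowest deposited value is 1. No further scaling was applied. After removal of 57 control probe sets, values under the 10th percentile (41.6) were set to it, and log2 was taken. Symbols came from the platform annotation. Of the probe sets 12783 carry 1 symbol, 312 several and 2771 none, and 12748 matched the RefSeq table by identifier. Where several probe sets read a gene, the brightest on average over the arrays stood for it.

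The tumours were ordered by the mean log2 of Mmp3, Mmp7 and Mmp13. All 24 entered one fit as 3 levels of 8 (limma 3.58.1 in R 4.3.3, lmFit and eBayes with trend and robust estimation), with the 3 genes left out and no covariate, and the contrast was high minus low. P-values were adjusted by Benjamini-Hochberg over all probe sets or all genes, with a threshold of 0.05. Array measures were compared by exact permutation. The procedure was tested on simulated data. The labels name no animal or batch, so p-values reflect only how these samples vary, some of it possibly technical. The number of arrays limits the precision.

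Genes are named by rule: where fewer than 5 genes were called in a direction the 10 with the smallest p, the 10 highest and 5 lowest rank correlations with the score, and a chosen panel, of which 39 of 42 genes were measured. Genes beyond these, in the lists, the 2-fold set and the slopes, are examples chosen after their values were seen. The members, lists and panel were chosen with earlier results of these data known. The slopes on single genes, the joint fit and the two-gene scores without X22L were added after the comparison by 3 genes gave 0 calls. The alternatives covered scaling, floor, dim probe sets, the spread model, the score, covariates, a block by title number and single tumours left out.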

Additional observations from a re-analysis of the deposited data

Results flagged for a closer look

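Of 134 sets of 8 tumours checked for one value far from the others, 9 had such a value by Dixon's criterion, where chance gives about 1 in 20. The criterion is the gap to the nearest value as a share of the range. It was taken on log2 signals for genes and on the ratio itself for Actb. The gene signals printed here are linear, on which the shares differ. In the low tumours Kat7 was 301 in X10 against 337 to 364 in the other 7 (gap 0.587 of the range). Pmepa1 was 3222 in X14 against 1477 to 2042 (0.585), and Pgr was 267 in X14 against 70.1 to 130 (0.535). Plbd1 was 88.2 in X2 against 189 to 345 (0.560), Serpine2 was 142 in X2 against 492 to 1475 (0.531) and Krt5 was 1072 in X2 against 1993 to 3460 (0.529). Rpsa was 3635 in X26 against 4446 to 4932 (0.660). In the high tumours Timp3 was 401 in X32 against 1087 to 2240 (0.579), and the Actb 3' to 5' ratio was 1.65 in X29.2 against 1.13 to 1.30 (0.674).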

How the results depend on the processing

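Of 37 other settings of the comparison by 3 genes, 33 gave 0 called genes. The exceptions were a higher floor (1 gene higher, Kat7), the scores without Mmp3 (44 genes higher and 12 lower, 58 and 14 probe sets) and without Mmp13 (9 genes and 14 probe sets higher), and leaving out X14. Leaving out single tumours gave 0 to 1 genes and 0 to 1 probe sets higher and 0 of each lower. Of the settings added after the data were seen, the scores without X22L gave 18 genes higher and 5 lower (26 and 7 probe sets) without Mmp3, and 3 and 1 (5 and 1 probe sets) without Mmp13. The slope on Mmp7 gave 269 and 62 genes (377 and 94 probe sets), and without X22L 148 and 49 (123 and 43 probe sets).

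The Mmp7 slope moved most. Rising and falling genes numbered 88 and 43 after quantile normalization, 742 and 280 with the Gapdh ratio as covariate, 434 and 137 with the fibroblast score, 337 and 118 with the adipocyte score, 0 and 0 with the luminal score, and 313 and 39 among the brighter probe sets (those above the median level). Leaving out single tumours gave 107 to 549 rising and 13 to 224 falling, and the total of 331 became 167 without X29.2, 773 without X18, 120 without X25R, 197 without X22L and 157 without X27. The causes were not tested.

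The labels give 2 title numbers to 2 tumours each. X29.1 and X29.2, both high, deviated together (correlation 0.35), and each correlated best with the other. X25L and X25R did not (0.04). The main fit did not take the numbers as pairs, so it counts X29.1 and X29.2 as separate tumours although they may not be independent. With the title number as a replicate block (consensus correlation 0.38) the 3-gene comparison gave 0 genes in either direction and the Mmp7 slope 208 rising and 39 falling. At an unadjusted p under 0.05 the blocked comparison had 389 genes positive and 232 negative, against 523 and 326 without the block. Over the 44 to 46 settings that measured each gene, 0 of the 20 genes named by p changed sign, and 24 of the 39 panel genes did in at least 1. Arrays give no counts, and signals near the floor limit the dim genes.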
